A study of Homo sapiens with 6 samples.

Results

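The 6 genes described here, SNAI1, SNAI2, TWIST1, TWIST2, ZEB1 and ZEB2, encode the transcription factors best known for driving the epithelial-to-mesenchymal transition (EMT). They were chosen by name, with earlier results of these data known, and all 6 were found among the 23284 genes of the deposited table. The gene lists used further on were also chosen with those results known, so counts set beside all tested genes are descriptions. RNA had been sequenced in 6 libraries from WA01, an established line of human embryonic stem cells that is labelled wildtype throughout. There were 2 libraries each of ES cells before induction (ES, day 0), cells on the way to crest (preNC, day 3) and neural crest cells (NC, day 5). Induction medium held 3 µM CHIR99021, a GSK3 inhibitor that turns on WNT signalling, and at the start of culture also 10 µM of the ROCK inhibitor Y-27632. The labels list these agents for every library, day 0 included, so they do not separate treated from untreated cells. The same holds for 2% B27 and for a density of 20000 cells per cm2, which the labels also list. Only 1 cell line was used, and nothing in the labels says that replicates came from separate cultures. The authors' p-values may therefore measure technical spread alone. The question addressed is how the transcriptome changes during neural crest induction.

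Neural crest cells form at the border of the neural plate and leave it by EMT, in which epithelial junctions are given up for a migratory state. The SNAI factors are zinc finger repressors, and the ZEB factors carry zinc finger clusters on either side of a homeodomain. Both families bind the E-box CAGGTG and are known to repress CDH1, which encodes the epithelial cadherin. The TWIST factors are basic helix-loop-helix proteins that bind DNA as dimers and act in cranial mesenchyme. ZEB1 and ZEB2 transcripts are in turn known targets of the miR-200 microRNAs, and the ZEB factors repress the microRNA genes.

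The 3' UTRs (untranslated ends) of ZEB1 and ZEB2 were unlike those of the other members in their matches to the miR-200 seeds. The mature microRNAs are shown to make the pairing visible, with the seed, bases 2 to 8, in capitals (RefSeq, GRCh38.p14). They fall into 2 seed groups.
miR-200b-3p: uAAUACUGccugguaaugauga
miR-200c-3p: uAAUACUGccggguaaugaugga
miR-429: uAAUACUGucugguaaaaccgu
miR-200a-3p: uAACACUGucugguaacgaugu
miR-141-3p: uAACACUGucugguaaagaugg
The seed match of miR-200b, miR-200c and miR-429 is CAGTATT, and that of miR-200a and miR-141 is CAGTGTT. Each was searched on the transcript strand of the longest annotated 3' UTR per gene (GENCODE 29, GRCh38). The ZEB1 3' UTR of 2549 bases held 6 CAGTATT and 3 CAGTGTT matches. The ZEB2 3' UTR of 5370 bases held 5 CAGTATT and 4 CAGTGTT matches. SNAI2 had 1 CAGTATT match, and SNAI1, TWIST1 and TWIST2 had 0 of either in UTRs of 830, 706 and 737 bases. Of 7707 genes with a UTR of at least 1500 bases, 16.5% held a CAGTATT match in its opening 1500 bases. Only 2 of those genes held 4 or more there, and they were ZEB1 and ZEB2, with 5 each. For CAGTGTT the share with any match was 19.2%, and ZEB1 held 1 and ZEB2 held 3 in that window. The CAGTATT match nearest to the stop codon of each gene is printed with the match in capitals (GRCh38).
ZEB1 (chr10:31527618-31527640, plus strand): attgttttatcttatCAGTATTa
ZEB2 (chr2:144389052-144389074, minus strand): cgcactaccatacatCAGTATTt
A match describes the sequence and does not show that a site is used.

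**Figure D1:**
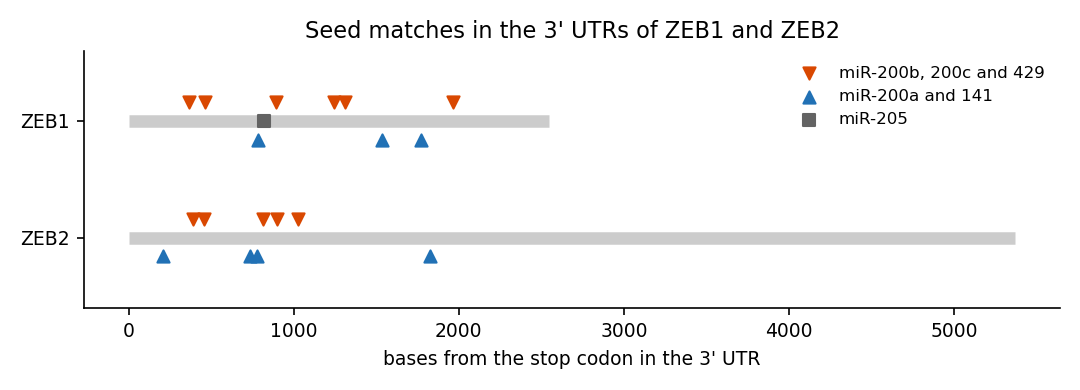
Position of seed matches in the longest annotated 3' UTRs of ZEB1 and ZEB2, in bases from the stop codon (grey bars span the UTRs of 2549 and 5370 bases; triangles mark matches to the miR-200 seeds, downward for CAGTATT and upward for CAGTGTT, and a square the 1 ZEB1 match to the miR-205 seed). The CAGTATT matches of ZEB2 all lie in the opening part of its UTR, whereas those of ZEB1 reach further along.

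The table gives 1 FPKM value per gene and group (fragments per kilobase of transcript and depth of mapped fragments), with the libraries of a group combined. No spread between libraries could therefore be computed, and their depth is unknown. In what follows a change is a log2 ratio of these FPKM values, the later day over the earlier. Values after ± are implied standard errors, obtained by dividing the log2 ratio by its test statistic as deposited by the authors. A gene was called, that is said to rise or fall, where the q-value in the authors' deposited table was below 0.05. The smallest q-value in the authors' deposited table is 0.000596, and many genes share it. In bulk RNA, fewer cells expressing a gene and less RNA per cell cannot be told apart.

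Of 5 pluripotency markers, 3 fell by day 3 and over the whole course, and LIN28A (396, 555 and 419 FPKM on days 0, 3 and 5) and SOX2 (203, 341 and 129) were called in neither comparison. POU5F1 and NANOG, core pluripotency factors, were at 1087 and 40.8 FPKM on day 0, 85.3 and 0.659 on day 3, and 9.40 and 0.615 on day 5. The third marker that fell by day 3 was TDGF1. Between day 3 and day 5, POU5F1 and SOX2 (log2 -1.40 ± 0.42) fell, and 0 of these markers rose. Of 9 neural crest markers, day 0 had 5 at an FPKM of at least 1, day 3 had 6 and day 5 had 9. Of all 23284 genes, 13428, 13250 and 13296 were at that level on those days. The crest markers summed to 38.1, 34.2 and 123 FPKM. By day 3, 5 of 8 tested crest markers rose and 2 fell, namely FOXD3 (17.9, 0.876 and 15.4 FPKM on days 0, 3 and 5) and ETS1 (7.27, 1.11 and 6.14). In the later step 7 of 9 rose and 0 fell. Since SNAI and TWIST genes also act in mesoderm, 11 mesoderm markers were summed, giving 34.3 FPKM on day 0, 10.2 on day 3 and 7.44 on day 5. KDR was the largest part of this sum on each day, at 22.2, 3.14 and 2.65. By day 3, 1 of 7 tested mesoderm markers rose and 2 fell, and over the whole course 1 rose and 3 fell. The mesoderm gene T (brachyury) was at 0.134, 0.777 and 0.0566, rising by day 3 and falling in the later step. MEOX1 was at 0.0449, 0.0529 and 0.920 and rose in the later step and over the whole course. The other marker sums were 13.2, 24.0 and 16.2 FPKM for 5 endothelial genes, mostly TEK, and 58.9, 24.2 and 69.4 for 6 fibroblast genes. Of the fibroblast genes, COL1A1, COL1A2 and COL3A1 are also counted among the mesenchymal genes described further on. The sums were 11.2, 5.34 and 8.25 for 5 trophoblast and amnion genes, and 2.18, 12.6 and 17.7 for 5 endoderm genes, mostly CXCR4, while SOX17 stayed at or below 0.0491. The part of such cells in the members' values was not tested.

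The leading EMT factor differed between the days. SNAI1 was the most abundant member in ES cells, ZEB2 took that place on day 3, and ZEB2, SNAI2 and ZEB1 led on day 5, while both TWIST genes stayed below an FPKM of 1 throughout. By day 3, 3 of 5 tested members had risen and 0 had fallen, when 8.96% of all 16231 tested genes were called higher and 11.6% lower. Between day 3 and day 5, 2 of 6 rose and 0 fell, when 5.93% of all 15932 tested genes were called higher and 6.68% lower. Over the whole course, 3 of 6 rose and 1 fell, when 12.2% of all 16409 tested genes were called higher and 14.7% lower.

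**Figure D2:**
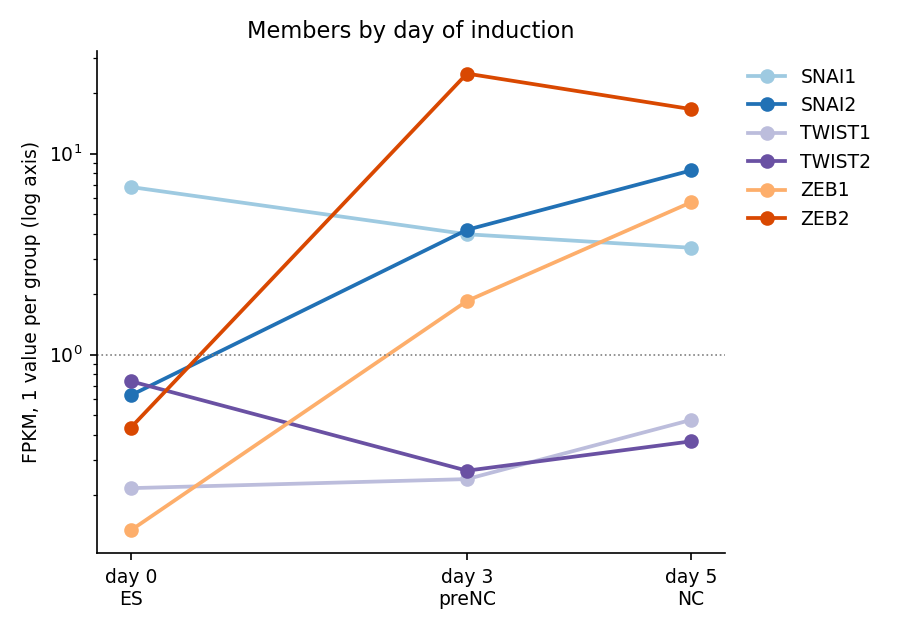
FPKM of the 6 members on day 0 (ES), day 3 (preNC) and day 5 (NC), on a log axis, with 1 authors' value per group and a dotted line at an FPKM of 1. ZEB2 rises steeply to 24.97 on day 3, SNAI2 and ZEB1 climb on both steps, and TWIST1 and TWIST2 stay under the line.

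ZEB2 (hg19 chromosome 2, 145141942 to 145278466) had the largest ratio of the members by day 3. It is the ZEB factor whose loss of function disturbs neural crest derivatives in Mowat-Wilson syndrome. It had 0.434 FPKM on day 0, 24.97 on day 3 and 16.6 on day 5. The increase by day 3 was 57.6-fold (log2 5.85 ± 0.50) and ranked 51 among the rises of 16231 tested genes on log2 of FPKM plus 1. On that scale, which dampens ratios of low values, the log2 change was 4.18. On that day the gene stood above 84.3% of all genes in the table. The lower value on day 5 was not called against day 3 (log2 -0.59 ± 0.47, q-value 0.159 in the authors' deposited table). Day 5 was 38.3-fold above day 0 (log2 5.26 ± 0.48). ZEB2 thus had all of its called change by day 3.

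ZEB1 (hg19 chromosome 10, 31608101 to 31818742) was called on both steps. Whether its course differs from that of ZEB2 was not tested. The gene encodes the paralogue of ZEB2, a repressor of epithelial polarity genes. The deposited FPKM was 0.134 on day 0, 1.85 on day 3 and 5.72 on day 5. ZEB1 rose on both steps, by 3.79 ± 0.56 on the log2 scale to day 3 and by 1.63 ± 0.50 between day 3 and day 5. Over the whole course the rise was 42.7-fold (log2 5.42 ± 0.52), of which 69.9% on the log2 scale was present on day 3. The fold starts from a day 0 level above only 28.9% of the genes in the table, and on log2 of FPKM plus 1 the changes were 1.33 by day 3 and 2.57 over the whole course.

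The levels of the ZEB paralogues, both per length of transcript, kept ZEB2 ahead on every day. ZEB2 was 3.24 times ZEB1 on day 0, 13.5 times on day 3 and 2.91 times on day 5. Summed, they had 0.568 FPKM on day 0, 26.8 on day 3 and 22.3 on day 5, and ZEB1 made up 23.6%, 6.89% and 25.6% of this.

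Antisense genes lie at both ZEB loci, and the strandedness of the libraries is not given in the sources used here, so overlapping reads cannot be told apart. ZEB2-AS1 overlaps the ZEB2 locus and was at 0.205, 4.10 and 2.29 FPKM on days 0, 3 and 5, without a call in any comparison. ZEB1-AS1 lies 76 bases from ZEB1 and was at 1.52 FPKM on day 0, 2.14 on day 3 and 6.83 on day 5. Its rise between day 3 and day 5 was called (log2 1.67 ± 0.54), that by day 3 was not (log2 0.50 ± 0.61). GTDC1, another gene near ZEB2, was at 7.25, 11.6 and 7.85 and was not called. Of these 3 genes, 0 were called by day 3 and 1 rose in each of the other comparisons, with medians of 0.61, -0.51 and 1.45 (log2 of FPKM plus 1).

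SNAI2 (hg19 chromosome 8, 49830239 to 49833999), also known as SLUG, is a classical marker of premigratory neural crest. Its level was 0.628 FPKM on day 0, 4.18 on day 3 and 8.24 on day 5. The increase by day 3 was 6.65-fold (log2 2.73 ± 0.63) and that over the whole course 13.1-fold (log2 3.71 ± 0.60). On log2 of FPKM plus 1 these were 1.67, above the 1.33 of ZEB1, and 2.50. The step between day 3 and day 5 was 1.97-fold (log2 0.98 ± 0.49), with a q-value of 0.0489 in the authors' deposited table, next to the threshold. Adjusted over that comparison alone, the same deposited p gives 0.0784, and a normal p computed from the authors' deposited test statistic gives an adjusted 0.209, so the call of this step does not hold under either.

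SNAI1 (hg19 chromosome 20, 48599513 to 48605420) is the paralogue that acts at gastrulation in the mouse. It went the other way, at 6.82 FPKM on day 0, 3.97 on day 3 and 3.40 on day 5. Neither single step was called (log2 -0.78 ± 0.41 by day 3 and -0.22 ± 0.46 between day 3 and day 5). Day 5 was lower than day 0 by a factor of 2.00 (log2 -1.003 ± 0.44), with a q-value of 0.0485 in the authors' deposited table. That call ends with the normal p of the authors' deposited statistic, which gives an adjusted 0.127.

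Within the SNAI pair the leading gene changed. SNAI2 made up 8.43% of the summed SNAI level on day 0, 51.3% on day 3 and 70.8% on day 5. The sum itself moved less, at 7.45 FPKM on day 0, 8.14 on day 3 and 11.6 on day 5. SNAI1 was 10.9 times SNAI2 on day 0, and SNAI2 was 2.42 times SNAI1 on day 5.

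TWIST1 (hg19 chromosome 7, 19155091 to 19157295), a regulator of cranial crest mesenchyme, was at 0.217, 0.241 and 0.474 FPKM on days 0, 3 and 5. Its change by day 3 had not been tested, and the other comparisons were not called (log2 0.98 ± 0.67 between day 3 and day 5 and 1.13 ± 0.73 over the whole course). TWIST2 (hg19 chromosome 2, 239756673 to 239795893), its close relative in dermal and bone precursors, was at 0.738, 0.265 and 0.371. It was not called either, with a log2 of -1.48 ± 0.58 by day 3 (q-value 0.144 in the authors' deposited table). The summed TWIST level was 0.955 FPKM on day 0, 0.506 on day 3 and 0.845 on day 5. The tested TWIST changes, at such low levels, were not called, which does not show that none took place.

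**Figure D3:**
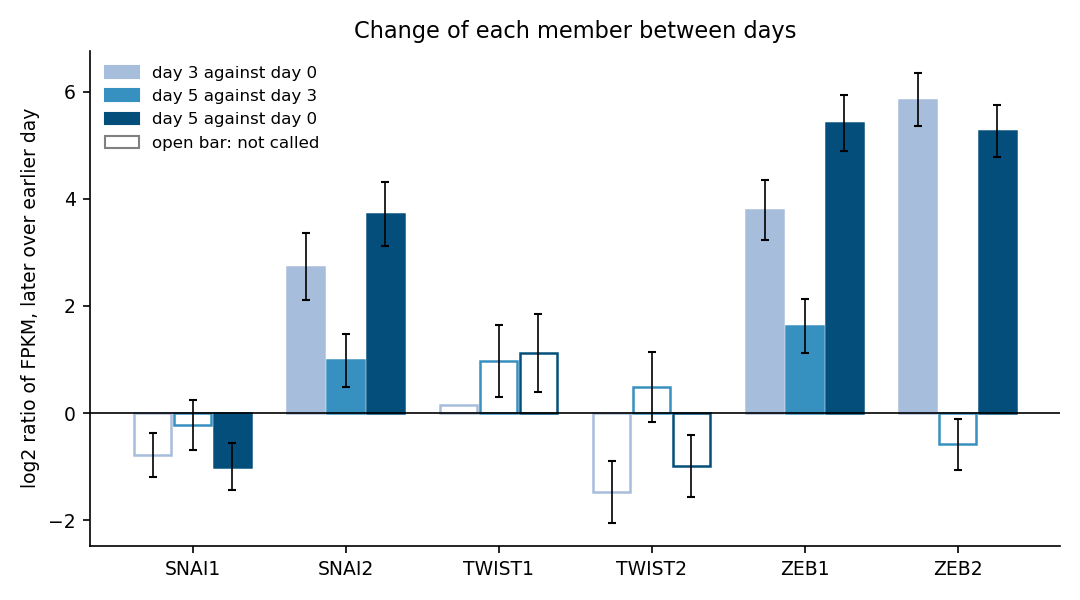
Log2 ratio of FPKM, later over earlier day, for the 6 members in the 3 comparisons. Filled bars were called at a q-value below 0.05 in the authors' deposited table, open bars were not, and error bars are the implied standard error (none for the untested TWIST1 step). SNAI2, ZEB1 and ZEB2 stand above 0 by day 3, SNAI1 lies below 0 on both steps, and the TWIST bars are all open.

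Added together, the 6 members had 8.97 FPKM on day 0, 35.5 on day 3 and 34.8 on day 5. SNAI1 held 76.0% of this total in ES cells, 11.2% in preNC cells and 9.76% in NC cells. For ZEB2 these shares were 4.84%, 70.4% and 47.7%. ZEB1 held 16.4% of the sum on day 5, against 5.21% on day 3, and SNAI2 held 23.7% on day 5, against 11.8% on day 3. In order of level, day 0 ran SNAI1, TWIST2, SNAI2, ZEB2, TWIST1, ZEB1 and day 5 ran ZEB2, SNAI2, ZEB1, SNAI1, TWIST1, TWIST2. Whether neighbours in these orders differ was not tested, since each level is 1 value.

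**Figure D4:**
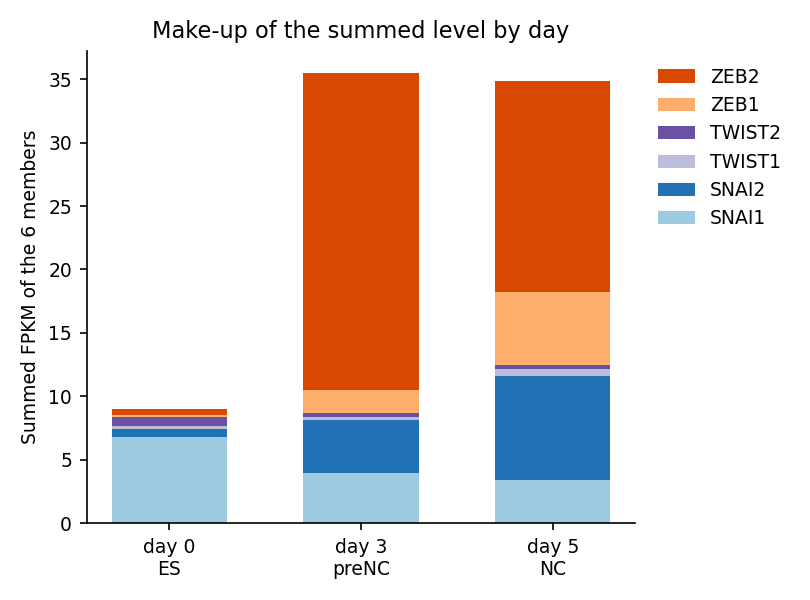
Summed FPKM of the 6 members on day 0 (ES), day 3 (preNC) and day 5 (NC), split by gene, with 1 authors' value per gene and group. SNAI1 fills most of the day 0 bar, and ZEB2 is the largest piece on day 3 and on day 5, when the ZEB1 and SNAI2 pieces are larger than on day 3.

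The genes with the nearest profiles were taken from 14573 genes that reached an FPKM of 1 on any day, by Euclidean distance of centred log2 of FPKM plus 1 over 3 days. With so few points this is a description only. ZEB2 was nearest to the small RNA genes MIR3653 (0, 16.7 and 10.9 FPKM on days 0, 3 and 5) and MIR635 (0, 20.3 and 11.9), whose short length makes their FPKM uncertain. Among longer genes its nearest was GREB1L (2.38, 56.5 and 43.9). ZEB1 was nearest to KLHDC8B (8.24, 22.5 and 53.3), SNRPN and MLLT3. SNAI2 was nearest to TXNIP (13.9, 43.7 and 84.4), the secreted WNT inhibitor NOTUM (0.1603, 2.42 and 5.42) and METRN. SNAI1 was nearest to ZNF770 (36.0, 22.4 and 19.9), GNMT and DCUN1D5.

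Epithelial genes, among them known targets of SNAI and ZEB repression, fell over the course in which SNAI2, ZEB1 and ZEB2 rose and SNAI1 fell. A link between these changes was not tested. Of 31 tested by day 3, 24 fell and 0 rose, and over the whole course 26 fell and 0 rose. The median log2 ratio of FPKM plus 1 was -2.16 by day 3 and -3.05 over the whole course, against 0.03 and -0.01 for all tested genes. CDH1 was at 75.6 FPKM on day 0, 3.95 on day 3 and 0.585 on day 5 (log2 -7.01 ± 0.56 over the whole course), with 60.7% of that log2 change present on day 3. EPCAM, an epithelial adhesion molecule, was at 149.9, 4.01 and 1.35, and AP1M2, an adaptor for basolateral sorting, at 82.2, 2.31 and 0.619. CLDN7, a claudin of tight junctions, was at 71.8, 1.36 and 0.364 without a call in any comparison, although the normal p of the authors' deposited statistic calls its fall by day 3.

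The polarity genes known as ZEB1 targets in cancer cells did not share 1 size of change. CRB3, a Crumbs protein of the apical membrane, was at 24.8 FPKM on day 0, 0.981 on day 3 and 0.223 on day 5. Its fall by day 3 was called (log2 -4.66 ± 0.61), whereas the larger ratio over the whole course was not (log2 -6.80 ± 1.18, q-value 0.115 in the authors' deposited table) unless the normal p was used. INADL, which encodes the tight junction scaffold PATJ, was at 6.59, 1.40 and 1.34, and LLGL2, a basolateral polarity gene, at 26.5, 18.7 and 12.8. LLGL2 was called over the whole course only (log2 -1.05 ± 0.46), and not with the normal p.

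Between day 3 and day 5, 10 of 28 tested epithelial genes fell and 2 rose. The median was -0.58, against -0.04 for all tested genes. The ones that rose were DSP, a desmosome component, at 4.76 FPKM on day 5 against 1.61 on day 3, and OVOL2, at 0.836 on day 5 against 0.203 on day 3. OVOL2 is a zinc finger repressor known to oppose ZEB1. It was at 5.69 on day 0, and OVOL1, its relative, at 1.56, 0.0412 and 0.0860 on days 0, 3 and 5. GRHL2, a factor that maintains epithelia and also opposes ZEB1, was at 6.41, 0.0884 and 0.0610. GRHL2 and both OVOL genes fell by day 3, when ZEB1 and ZEB2 rose, and a link was not tested.

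The E-box CAGGTG was searched on both strands (CACCTG is the same box on the other strand) in the promoters of these genes, from 250 bases before to 50 after the start (RefSeq, GRCh38.p14). Promoters matched 16 of the 31 epithelial genes, and CDH1 and EPCAM were not among the 16. Of the 21 promoters matched, 14 held the box, or 66.7%, against 20.6% of all 35116 promoters. At least 3 boxes stood in 4 of the 21, against 0.635% of all promoters. Of 17 promoters matched to 12 mesenchymal genes, 3 held the box, or 17.6%. Some promoters of the same gene overlap, among them LOX windows that share a box. Counted by gene, 13 of 16 epithelial, 2 of 12 mesenchymal and 6571 of all 27305 matched genes held it. The epithelial list had been drawn up with known repressor targets in it, so these shares and counts are descriptions. The promoters of CLDN7 and CRB3, with 5 boxes each, are printed as those with the most, with the boxes in capitals.
CLDN7 (chr17:7262429-7262728, minus strand): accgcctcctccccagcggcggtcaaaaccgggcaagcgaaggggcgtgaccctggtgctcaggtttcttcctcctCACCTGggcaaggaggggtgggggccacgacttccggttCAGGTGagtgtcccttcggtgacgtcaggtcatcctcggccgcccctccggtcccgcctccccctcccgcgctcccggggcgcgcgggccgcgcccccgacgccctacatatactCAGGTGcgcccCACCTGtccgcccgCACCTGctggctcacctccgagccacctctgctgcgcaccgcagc
CRB3 (chr19:6464021-6464320, plus strand): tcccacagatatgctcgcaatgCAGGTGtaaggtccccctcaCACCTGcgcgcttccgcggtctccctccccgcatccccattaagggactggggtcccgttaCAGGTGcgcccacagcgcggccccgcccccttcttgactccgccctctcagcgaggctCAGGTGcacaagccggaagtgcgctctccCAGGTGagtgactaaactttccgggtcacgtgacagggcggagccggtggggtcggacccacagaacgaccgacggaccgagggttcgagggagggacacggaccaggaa
Among the members, promoters were matched for ZEB1, ZEB2 and TWIST2. The ZEB2 and TWIST2 promoters held 0 boxes, and 2 of 7 ZEB1 promoters held some. The ZEB1 promoter with 3 is printed beside the ZEB2 promoter without any, because these paralogues are set side by side above.
ZEB1 (chr10:31318966-31319265, plus strand): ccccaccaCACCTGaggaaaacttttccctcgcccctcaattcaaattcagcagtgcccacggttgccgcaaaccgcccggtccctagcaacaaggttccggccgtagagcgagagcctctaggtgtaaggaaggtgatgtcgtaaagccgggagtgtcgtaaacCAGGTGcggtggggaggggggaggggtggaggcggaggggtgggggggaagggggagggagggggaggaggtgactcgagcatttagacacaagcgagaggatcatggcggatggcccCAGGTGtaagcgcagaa
ZEB2 (chr2:144520070-144520369, minus strand): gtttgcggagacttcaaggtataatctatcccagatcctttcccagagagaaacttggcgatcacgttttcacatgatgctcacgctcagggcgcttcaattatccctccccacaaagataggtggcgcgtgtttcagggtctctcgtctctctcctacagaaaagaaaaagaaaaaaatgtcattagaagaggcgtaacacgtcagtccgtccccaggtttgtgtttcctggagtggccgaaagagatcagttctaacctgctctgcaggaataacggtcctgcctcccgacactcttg
A box in the window is not evidence of binding, and its absence there says nothing of boxes elsewhere.

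Mesenchymal genes moved in both directions by day 3, and those called in the later step all rose. Of 21 tested by day 3, 9 rose and 4 fell, and the median log2 ratio of FPKM plus 1 was 0.03, equal to the 0.03 of all tested genes. Between day 3 and day 5, 12 of 20 rose and 0 fell, with a median of 0.73 against -0.04. Over the whole course 13 rose and 3 fell, with a median of 1.10 against -0.01. With the normal p of the authors' deposited statistic, 6 were called in the step between day 3 and day 5, and 7 at a deposited q-value below 0.01.

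The cadherins that replace CDH1 in mesenchymal and neural cells rose. CDH2, neural cadherin, was at 15.8 FPKM on day 0, 101 on day 3 and 157 on day 5, and its ratio to CDH1 went through 0.210, 25.5 and 268 on those days. CDH6, a cadherin of the neural crest, was at 0.884, 3.32 and 41.9, and CDH11 at 1.70, 11.4 and 21.0. ACTA2, smooth muscle actin, reached 266 on day 5 against 4.41 on day 0 (log2 5.91 ± 0.47). Among the genes that fell over the whole course were COL1A1, a fibrillar collagen chain (19.8 on day 5 against 34.2 on day 0, not called with the normal p or at a q-value below 0.01), and THY1, a surface glycoprotein (19.3 against 158).

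**Figure D5:**
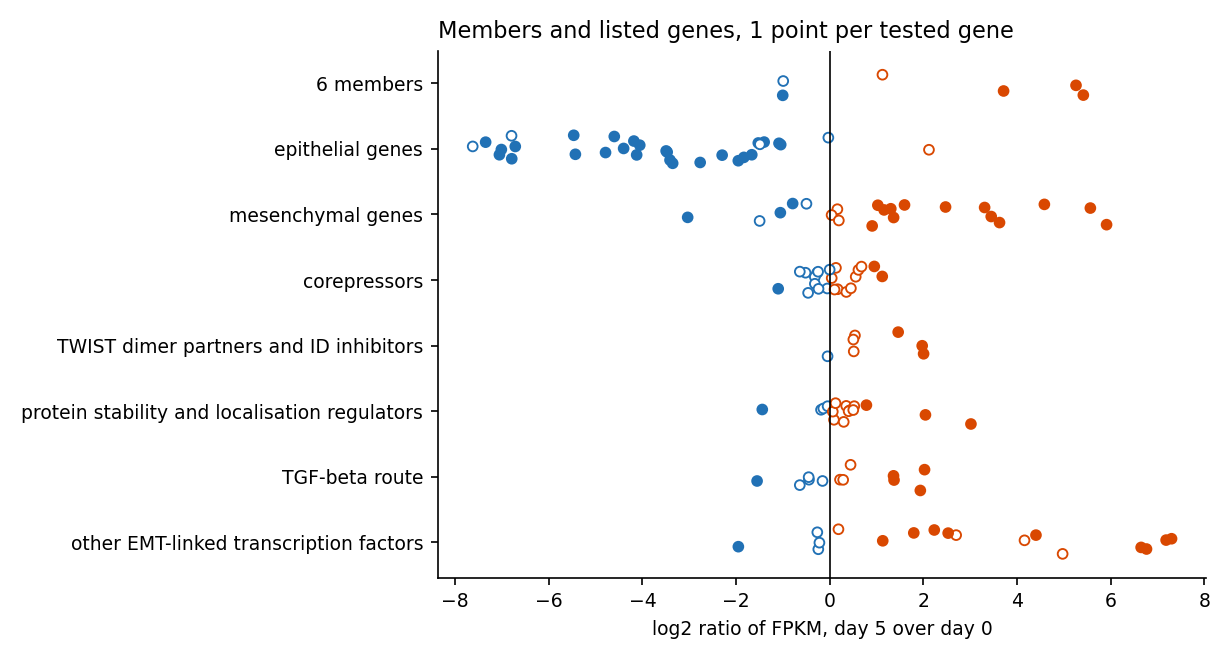
Log2 ratio of FPKM, day 5 (NC) over day 0 (ES), for the members and for listed genes, with 1 point per tested gene (filled where called, orange above 0, blue below 0, vertical jitter only for legibility). The epithelial genes lie below 0 apart from GRHL3, the mesenchymal genes mostly above, and the corepressors near 0.

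The corepressors through which SNAI and ZEB factors act were present on every day, and few were called. Of 22 tested, 1 rose and 0 fell by day 3, 0 rose and 1 fell between day 3 and day 5, and 2 rose and 1 fell over the whole course. Of all tested genes, 8.96% were called higher and 11.6% lower by day 3, and 5.93% and 6.68% in the later step. Over the whole course these shares were 12.2% and 14.7%. Whether the corepressors differ from these shares was not tested. Their medians were 0.19, -0.15 and 0.02, against 0.03, -0.04 and -0.01 for all tested genes. CTBP2, a corepressor bound by ZEB factors, was at 68.0, 54.1 and 31.7 FPKM on days 0, 3 and 5. It was called on the later step (log2 -0.77 ± 0.40), though not with the normal p or at a q-value below 0.01. Its fall over the whole course (log2 -1.10 ± 0.37) was called under both. CTBP1 was at 61.3, 78.5 and 90.1 without a call. The LIM proteins AJUBA and WTIP, adaptors of the SNAG domain of SNAI factors, rose over the whole course, to 42.1 on day 5 against 19.3 on day 0 and to 16.1 against 8.31. EZH2, the Polycomb methyltransferase, was at 29.3, 55.5 and 44.8 and rose by day 3, a call that ends with the normal p. KDM1A, the demethylase that docks on SNAI1, was at 121, 134 and 125.

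The E protein partners of TWIST and their ID inhibitors were above both TWIST genes in FPKM on every day, whereas the bHLH relatives HAND1 (0.0278, 0.330 and 0.253 FPKM on days 0, 3 and 5) and HAND2 (0, 0.0295 and 0.0110) of the same list were near or below them and not tested. The E protein genes TCF12 (24.6, 40.5 and 96.6 FPKM on days 0, 3 and 5) and TCF4 (13.2, 27.2 and 18.9) rose by day 3, and TCF12 rose again. The TCF12 call by day 3 ends with the normal p and at a q-value below 0.01, its later one with neither. ID proteins bind E proteins and keep them from DNA. ID1 was at 119, 11.3 and 174, ID4 at 6.45, 2.56 and 25.9, and ID2 at 67.6, 231 and 186. By day 3, 3 of 7 tested genes of this list rose and 2 fell, and in the later step 3 rose and 0 fell. Over the whole course 3 rose and 0 fell. The medians were 0.38, 0.67 and 0.54, against 0.03, -0.04 and -0.01 for all tested genes.

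Genes for proteins that set the stability or place of the SNAI and TWIST proteins are listed because RNA levels do not show protein levels. GSK3B, the kinase that marks SNAI1 for degradation and the target of CHIR99021, was at 11.0, 17.8 and 19.0 FPKM on days 0, 3 and 5, and rose over the whole course (log2 0.78 ± 0.36), a call that ends with the normal p and at a q-value below 0.01. FBXL14, an F-box protein that marks SNAI and TWIST proteins for degradation, was at 3.61, 7.35 and 14.9 and rose on both steps and over the whole course. Its calls on the single steps end with the normal p and at a q-value below 0.01, the call over the whole course with neither. AXIN2, a WNT target known to affect SNAI1 through GSK3, was at 8.76, 26.2 and 70.9. PAK1, a kinase of SNAI1, was at 53.7, 26.3 and 19.8 and fell by day 3. Of 16 tested, 2 rose and 1 fell by day 3, 2 rose and 0 fell in the later step, and 3 rose and 1 fell over the whole course. The medians were 0.27, 0.06 and 0.29, to be read against the same all-gene medians.

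TGF-beta signalling, a known inducer of these factors, was represented by 12 tested genes in each comparison, of which 4 rose and 2 fell by day 3. The receptors TGFBR1 (12.1, 36.5 and 31.0 FPKM on days 0, 3 and 5) and TGFBR3 (0.699, 4.72 and 2.85) and the signal carrier SMAD3 (2.52, 8.69 and 6.52) rose by day 3. The receptor TGFBR2 was at 2.29, 1.29 and 1.47, without a call in any comparison. SKIL, a repressor of SMAD activity, was at 20.3, 2.98 and 6.93. It fell by day 3 and was the 1 gene of the list that rose in the later step, when 0 fell, though with the normal p it was not called there. Over the whole course 4 rose and 1 fell. The medians were 0.29, -0.01 and 0.22.

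Of 11 microRNA genes of the miR-200, miR-205, miR-203 and miR-34 groups in the table, 3 were tested by day 3. MIR200A, MIR200B, MIR200C, MIR141 and MIR205 were listed at 0 on every day. Mature microRNAs lack a poly-A tail, so poly-A libraries do not measure them and these values say nothing of the microRNAs printed above. MIR429 was listed at 70.7 FPKM on day 0 and at 0 on days 3 and 5, without a call (q-value 0.184 in the authors' deposited table). MIR205HG, the host transcript of miR-205, was at 4.17, 0.242 and 0.726 on days 0, 3 and 5, and its fall by day 3 was the 1 call of the list in that comparison (log2 -4.10 ± 0.90). Between day 3 and day 5 the list had 0 calls of 2 tested, and over the whole course MIR205HG was again the 1 gene called, lower on day 5. MIR34A was at 4.61, 14.0 and 12.7 and was not called, but the normal p of the authors' deposited statistic would add it in each comparison, making 2, 1 and 2 calls. Its q-values in the authors' deposited table were 0.651 by day 3, 0.932 in the later step and 0.736 over the whole course. The deposited statistic and q-value are thus far apart for this gene, and the added calls are not relied on. The medians of the tested genes were -2.06, 0.17 and -1.58.

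Relatives of the members by sequence moved in both directions by day 3, and those called over the whole course all fell. SNAI3 was at 7.68, 1.95 and 1.00 FPKM on days 0, 3 and 5, and fell by day 3 (log2 -1.98 ± 0.62). The Scratch genes SCRT1 and SCRT2, neural members of the SNAI superfamily, rose by day 3 to 0.457 and 0.511 (log2 2.19 ± 0.55 and 2.29 ± 0.60). Both stayed below an FPKM of 1 on every day and were not tested over the whole course. TCF15, a bHLH gene of somites, was at 5.91, 2.099 and 1.03 and fell by day 3. MSC was at 1.22, 1.49 and 0.362 without a call. Of 6 tested by day 3, 2 rose and 3 fell, of 5 tested in the later step 0 were called, and of 4 tested over the whole course 3 fell. The medians were -0.27, -0.56 and -1.26.

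Other transcription factors tied to EMT or crest delamination rose on both steps in several cases. Of 15 tested by day 3, 6 rose and 3 fell, and of 17 tested between day 3 and day 5, 8 rose and 0 fell. Over the whole course 9 of 17 rose and 1 fell. The medians were 0.67, 0.37 and 0.77. The border factors MSX1 (0.503, 4.41 and 73.2 FPKM on days 0, 3 and 5), MSX2 (0.405, 2.21 and 40.8), PAX3 (0.253, 3.36 and 39.9) and TFAP2A (0.108, 1.11 and 11.8) rose on both steps, as did ZEB1. FOXD3, a crest specifier, was at 17.9, 0.876 and 15.4, so its lowest value fell on day 3, when ZEB2 had its highest.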

How the data were processed

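WA01 cells were profiled by poly-A RNA sequencing in 3 groups of 2 libraries. Per the submitters' processing notes, TopHat2 2.0.10 and Cuffdiff 2.1.1 were used with hg19. No annotation or strandedness is given in the sources used here. Per the file headers the authors deposited 1 FPKM value per gene and group, a Cuffdiff test statistic (a score), and a p-value and q-value for each of 3 comparisons. The deposited q-value equals the Benjamini-Hochberg adjustment over 48572 tested rows to within 5.25e-07. Computed here with Python 3.11.15, pandas 2.3.3 and SciPy 1.17.1 were log2 FPKM ratios, implied standard errors (log2 ratio over test statistic), list counts, and medians on log2 of FPKM plus 1. The implied errors did not always match the deposited p-values. Spreadsheet error text was read as missing. Starts were taken as counted from 0 and are printed from 1. Named were all members, up to 4 genes per list with the largest change at an FPKM of at least 1, the 3 nearest profiles per member, and genes needed to explain a count. The members and the 10 lists (153 of 157 genes found) were chosen with earlier results of these data known. Alternatives covered the q threshold, the adjustment, the p-value, an FPKM filter, pseudocounts, rescaling and the promoter window. The normal p and its adjustment were tested on simulated data. Depth per library is unknown, so no counting interval is given.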

Additional observations from a re-analysis of the deposited data

How the results depend on the processing

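No paired analysis was possible because the table holds 1 value per group, and for the same reason no library could be left out. The members' log2 ratios had 162 repeats, with pseudocounts of 1, 0.5 and 0.1, 2 rescalings, and 4 other call rules. A pseudocount cannot reverse a ratio and a call rule leaves it unchanged, so only the rescalings could have changed a sign. Under both rescalings every sign held. Pseudocounts shrank ratios of low values (ZEB1 by day 3 stood at 3.06, 1.89 and 1.33 with 0.1, 0.5 and 1). The call was lost in 5 repeats. Of these, 3 were for SNAI2 between day 3 and day 5, and the others for SNAI1 over the whole course. The SNAI1 call was lost at a q-value below 0.01 and with the normal p. Between day 3 and day 5, 1 member, ZEB1, was called at a q-value below 0.01, with adjustment over that comparison alone and with the normal p of the test statistic, against 2 as reported. All genes called in that step numbered 1205 at a q-value below 0.01 and 1242 with the normal p, against 2009. Rescaling to the FPKM sum without the 3 largest genes moved every log2 ratio by 0.15 between day 3 and day 5, by 0.13 over the whole course and by -0.01 by day 3, so ZEB2 stood at -0.44 in the later step. Of 179 calls over the 10 lists and 3 comparisons, 151 held at a q-value below 0.01 and 150 with the normal p, which added 13. Among calls named above, the normal p ended those of EZH2, TCF12 and FBXL14 by day 3, of CTBP2, SKIL and FBXL14 between day 3 and day 5, and of LLGL2, GSK3B and COL1A1 over the whole course. The q-value limit of 0.01 ended those of TCF12, FBXL14, OVOL1, SCRT1, SCRT2 and TCF15 by day 3, of CTBP2, FBXL14 and OVOL2 between day 3 and day 5, and of WTIP, GSK3B and COL1A1 over the whole course. The E-box share in epithelial promoters was 52.4% in the 100 bases around the start, against 7.01% of all promoters. Levels of TWIST1, TWIST2 and day 0 ZEB1 are limited by depth, which is unknown.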
